A study of Homo sapiens with 6 samples.

Results

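The granule genes of mast cells and eosinophils described here are CPA3, the tryptase genes TPSAB1, TPSB2 and TPSD1, HDC and PRG2. They were chosen by name for the products they encode. All 6 were found among the 14821 genes of the deposited table, and all 6 were among the 14203 genes tested. None of them passed the filter on low counts through 1 group alone, since the lowest value of any of them in any library was 6.95 CPM (counts per 1000000 counts of the library, scaled by TMM).

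Mast cells, and basophils to a lesser degree, store preformed mediators in secretory granules. The proteases tryptase and carboxypeptidase A3 and the amine histamine are held there on serglycin, a core protein that in mast cells carries heparin chains, and are released together when the cell is activated. Eosinophils fill their granules with other cationic proteins, of which major basic protein forms the crystalline core. These lineages arise from progenitors that also use GATA factors, as erythroid and megakaryocytic cells do.

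The study measured RNA in F36P, an established human erythroleukaemia line. The ERG group carried the retroviral construct MSCV-PIG-AM-ERG and is labelled ERG overexpression. The control group, labelled WT, carried the empty construct MSCV-PIG, and both groups were selected for 4 days with 1 µg/ml puromycin, so the vector and the selection were shared by all libraries. Each group had 3 libraries of polyadenylated RNA, called ERG 1 to 3 and vector 1 to 3 below. The series' text gives as its question how ERG blocks erythroid differentiation. The labels call the libraries biological replicates but name no separate cultures or transductions, so p-values measure only the spread between these libraries. The model is 1 leukaemia line with ERG delivered by a retrovirus, and no mast cells or eosinophils were measured.

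The 3 tryptase genes are shown as sequence because their rows cannot be read as fully separate measurements. They lie side by side on chromosome 16 (GRCh38, GENCODE release 29): TPSB2 at chr16:1227272-1230184 on the minus strand, TPSAB1 at chr16:1240696-1242554 on the plus strand and TPSD1 at chr16:1256059-1258998 on the plus strand. The coding sequences of TPSAB1 and TPSB2 are each 849 bases long and matched at 845 of them. The TPSD1 coding sequence is 729 bases long, matched each of the others at 89.2% of aligned bases and lacked 120 positions of them. The stretch from coding base 90 to coding base 179 holds all 4 differences between TPSAB1 and TPSB2, and the capitals mark the 9 positions at which the 3 genes are not all alike.
TPSAB1: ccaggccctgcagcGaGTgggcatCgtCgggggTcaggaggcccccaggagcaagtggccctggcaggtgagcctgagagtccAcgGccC
TPSB2: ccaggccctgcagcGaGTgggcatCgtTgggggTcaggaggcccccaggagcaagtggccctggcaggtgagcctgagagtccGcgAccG
TPSD1: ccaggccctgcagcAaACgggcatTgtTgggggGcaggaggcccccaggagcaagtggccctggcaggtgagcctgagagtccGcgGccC

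Of all stretches of 50 bases in the annotated transcripts, 76.1% of those in TPSAB1 and 72.4% of those in TPSB2 also occurred in another of the 3 tryptase transcripts. In TPSD1 the share was 15.4%. At 100 bases the shares were 62.1% for TPSAB1, 58.5% for TPSB2 and 5.93% for TPSD1. Neither the read length nor the handling of reads with several matches is known here, so the TPSAB1 and TPSB2 rows are uncertain as separate genes, and the sum of the 3 rows is given beside them.

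Total counts per library ran from 10257141 to 14803031. ERG, the introduced gene, stood at 97.4, 103 and 104 CPM in ERG 1, 2 and 3 and at 28.1, 14.6 and 22.4 CPM in vector 1, 2 and 3, with no overlap. The libraries did not group by construct alone. ERG 1 and ERG 2 were far closer to each other than any other pair (Pearson r of log2 CPM across genes 0.993, against 0.937 to 0.978), although their counts still differed by more than sampling noise (chi-square per degree of freedom 2.20, against 21.6 to 86.9 for the other pairs), and they were counted as 2 samples. Across all genes ERG 1, ERG 2 and vector 1 resembled each other, as did ERG 3, vector 2 and vector 3. These are called the first and second library sets below. What the sets stand for was not given, and each result is also shown within them. The sets were read from these same counts and not from labels. Adjusted p-values from fits with a term for the set do not allow for that choice.

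Over all tested genes, edgeR's quasi-likelihood test called 209 higher with ERG (1.47%) and 104 lower (0.732%) at an adjusted p under 0.05. Among the 6 granule genes CPA3 was called higher and none was called lower. Before adjustment 5 were higher and 0 lower at an edgeR p under 0.05, a count for which no share over all genes was taken. DESeq2 called 4 higher and 0 lower, against 596 and 410 of the 14203 tested genes. With limma the numbers were 2 and 0, against 231 and 111. The 3 tryptase rows among the 6 are not fully separate measurements. In 5 of the 6 the 3 ERG libraries lay outside the range of the vector libraries, as they did, in either direction, for 21.9% of all tested genes. The median log2 fold change of the 6 was 1.11, against -0.01 over all tested genes. Adding up all 6, the granule genes took 0.267, 0.255 and 0.235% of counts in ERG 1, 2 and 3 and 0.226, 0.133 and 0.139% in vector 1, 2 and 3. In RNA from whole cultures, more cells of a kind and more RNA per cell cannot be told apart.

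**Figure D1:**
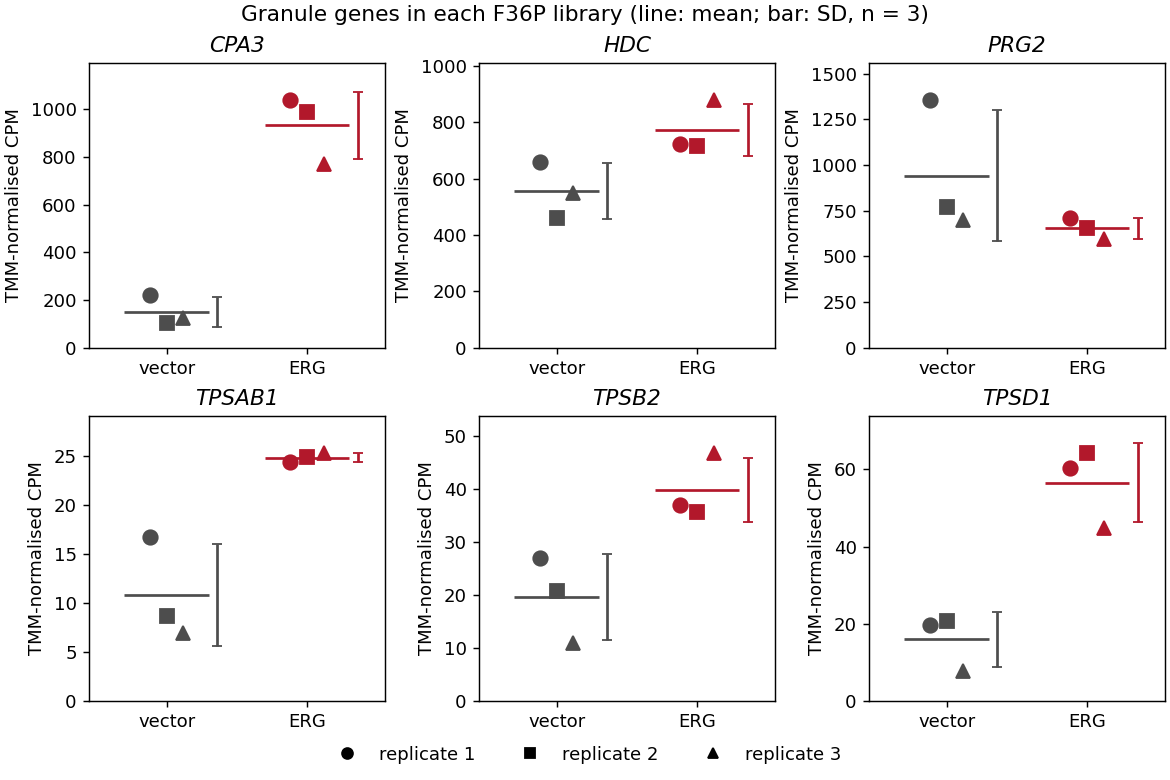
Level of each granule gene in each library, in TMM-normalised CPM on a linear axis from 0. Points are libraries, the symbol gives the replicate number, the line is the group mean and the bar the SD (n = 3). PRG2 is the gene whose groups overlap, and CPA3 shows the widest gap, 772 to 1038 in ERG libraries against 105 to 220 in vector libraries.

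CPA3 encodes mast cell carboxypeptidase A3, a zinc protease that removes single residues from the carboxyl end of peptides. The gene lies at chr3:148865256-148897196 on the plus strand. It stood at 1038, 987 and 772 CPM in ERG 1, 2 and 3 and at 220, 105 and 123 CPM in vector 1, 2 and 3. Every ERG library was above every vector library, and vector 1 was the highest of the controls. The means were 932 ± 141 and 150 ± 61.7 CPM (SD, n = 3 each), a log2 fold change of 2.64 (SE 0.31, 95% interval 1.92 to 3.36) or 6.23-fold, and the change passed the edgeR test (adjusted p = 0.0124). Within the first library set the log2 difference was 2.20 and within the second it was 2.76.

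The rise of CPA3 was present in all 17 alternative settings, between 2.44 and 3.03 on the log2 scale, but its call depended on the libraries. The call was lost without ERG 1 (log2 fold change 2.56, edgeR adjusted p = 0.0777), without ERG 2 (2.60, 0.0790), without vector 2 (2.44, 0.0593) and without vector 3 (2.52, 0.0634), and when ERG 1 and ERG 2 were summed to 1 library (2.57, 0.0818). Without ERG 1, without ERG 2 or with both summed, edgeR called no gene at all, with 1278, 1256 and 1277 genes at an unadjusted p under 0.05.

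The tryptase genes encode the serine proteases that are the most abundant protein of mast cell granules. TPSAB1 and TPSB2 between them encode the alpha and beta enzymes, and TPSD1 encodes delta tryptase, which is cut short at its end. The sequences above are those of the reference, and the alleles that F36P carries were not read. TPSD1 stood at 60.5, 64.2 and 44.9 CPM in ERG 1, 2 and 3 and at 19.5, 20.6 and 7.63 CPM in vector 1, 2 and 3. The groups did not overlap, and vector 3 was the lowest library. The log2 fold change of TPSD1 was 1.82 (SE 0.36, 95% interval 0.99 to 2.66), and with an edgeR adjusted p of 0.0505 it did not pass the threshold.

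TPSAB1 stood at 24.4, 24.9 and 25.3 CPM in ERG 1, 2 and 3 and at 16.7, 8.68 and 6.95 CPM in vector 1, 2 and 3. The ERG libraries were nearly level, at 24.9 ± 0.463 CPM, while the vector libraries spread over 10.8 ± 5.22 CPM (SD, n = 3 each) with vector 1 the highest. The log2 fold change was 1.20 (SE 0.32, 95% interval 0.47 to 1.94, edgeR adjusted p = 0.111). TPSB2 stood at 37.0, 35.6 and 46.8 CPM in ERG 1, 2 and 3 and at 27.0, 20.7 and 10.9 CPM in vector 1, 2 and 3. Its groups did not overlap either, and its log2 fold change was 1.02 (SE 0.31, 95% interval 0.29 to 1.75, edgeR adjusted p = 0.164).

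Summed over the 3 rows, tryptase stood at 122, 125 and 117 CPM in ERG 1, 2 and 3 and at 63.3, 49.96 and 25.4 CPM in vector 1, 2 and 3. The sum does not depend on how counted reads were divided among the rows. Any reads dropped for having several matches would be missing from the sum too. Stretches open to such loss were more frequent in TPSAB1 and TPSB2 than in TPSD1. The ERG libraries lay within a narrow band and the vector libraries were lower and more spread, at 121 ± 3.90 against 46.2 ± 19.2 CPM (SD, n = 3 each). The sum was 2.62-fold higher, a log2 fold change of 1.39 (SE 0.30, 95% interval 0.69 to 2.09), and just missed the threshold of the edgeR test (adjusted p = 0.0667). Within the first and second library sets the log2 differences were 0.55 and 1.69 for TPSAB1, 0.42 and 1.63 for TPSB2 and 1.67 and 1.83 for TPSD1.

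The calls on tryptases changed with the setting. TPSD1 passed in 8 of the 17 alternatives (log2 fold changes 1.497 to 2.05), TPSAB1 in 5 (0.97 to 1.67), the sum in 5 (1.10 to 1.68) and TPSB2 in 2 (0.74 to 1.33). Without vector 1, TPSAB1 passed at a log2 fold change of 1.67 (edgeR adjusted p = 0.0155) and the sum at 1.68 (0.0353).

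The tryptase counts were also divided differently among the rows. TPSD1 took 49.6% of the tryptase counts in ERG 1 (exact 95% binomial interval 47.1 to 52.1%), 51.5% in ERG 2 (49.2 to 53.8%) and 38.4% in ERG 3 (36.1 to 40.7%). In vector 1, 2 and 3 it took 30.9% (27.5 to 34.4%), 41.2% (37.4 to 45.0%) and 30.0% (24.5 to 35.97%). ERG 1 and ERG 2 stood above the rest, and ERG 3 lay below vector 2. The intervals cover counting error only. The ratio of TPSD1 to TPSB2 counts had a geometric mean of 1.41 in ERG and 0.796 in vector libraries, a difference that did not exceed the spread of libraries (two-sided exact permutation test, p = 0.2, with 0.1 the smallest p that 3 against 3 libraries allow). The ratio of TPSAB1 to TPSB2 differed by less, with geometric means of 0.630 and 0.549 (exact p = 0.5).

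**Figure D2:**
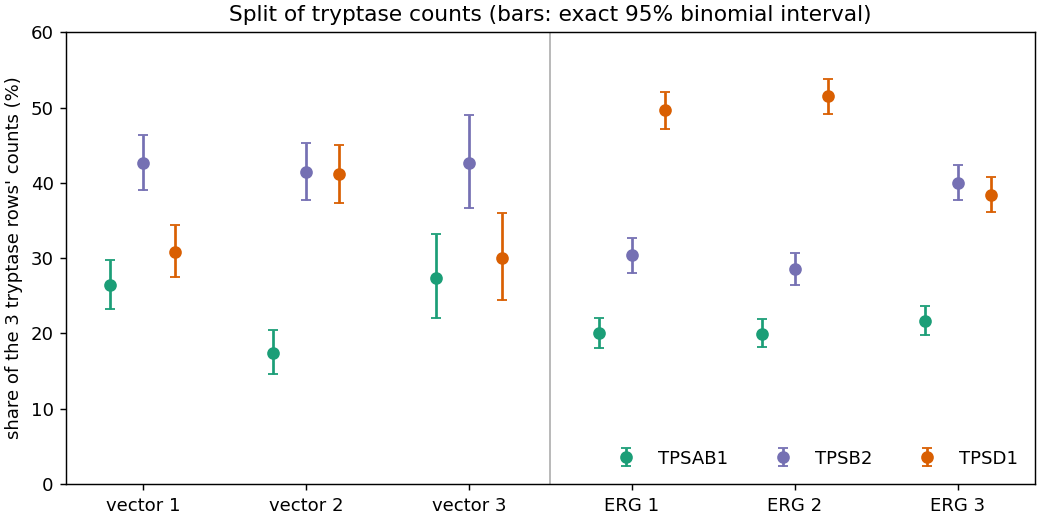
Share of the summed tryptase counts that fell on TPSAB1, TPSB2 and TPSD1 in each library, in percent, with exact 95% binomial intervals as bars. The TPSD1 share is highest in ERG 1 and ERG 2, at 49.6 and 51.5%, while that of ERG 3, 38.4%, lies among the vector libraries.

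HDC encodes histidine decarboxylase, the enzyme that makes histamine from histidine. The gene lies at chr15:50241947-50266026 on the minus strand. It was well expressed without added ERG, at 658, 459 and 550 CPM in vector 1, 2 and 3, and stood at 725, 716 and 879 CPM in ERG 1, 2 and 3. Every ERG library was above every vector library, though ERG 2 exceeded vector 1 by little. The means of 773 ± 91.5 and 556 ± 99.5 CPM (SD, n = 3 each) gave a log2 fold change of 0.48 (SE 0.19, 95% interval 0.04 to 0.91) that did not pass the edgeR test (adjusted p = 0.271). HDC passed in none of the 17 alternatives, whose log2 fold changes ran from 0.36 to 0.62. It differed by 0.13 on the log2 scale within the first library set and by 0.81 within the second.

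PRG2 encodes the proform of eosinophil major basic protein, proteoglycan 2, and is the eosinophil gene among the 6. The gene lies at chr11:57386794-57390657 on the minus strand. It stood at 710, 654 and 597 CPM in ERG 1, 2 and 3 and at 1355, 769 and 701 CPM in vector 1, 2 and 3. The groups overlapped narrowly, and vector 1 stood far above the other controls. PRG2 was the only granule gene with a negative log2 fold change, -0.53 (SE 0.27, 95% interval -1.15 to 0.10), and it did not pass (edgeR adjusted p = 0.391). The means were 654 ± 56.4 and 941 ± 360 CPM (SD, n = 3 each). Without vector 1 the log2 fold change shrank to -0.17. With a term for the library set, itself read from these counts, it was -0.65 and PRG2 passed as lower (edgeR adjusted p = 0.0188). With ERG 1 and ERG 2 also summed the log2 fold change was -0.59 and PRG2 did not pass (0.0805). The log2 difference was -0.99 within the first set and -0.30 within the second.

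Vector 1 was the highest vector library for every granule gene but TPSD1. The difference between the 2 library sets in the ERG effect was estimated as an interaction for each gene, second set over first. On the log2 scale it was 0.56 for CPA3, 1.13 for TPSAB1, 1.13 for TPSB2, -0.03 for TPSD1, 0.67 for HDC and 0.69 for PRG2. Vector 1 in the first set and ERG 3 in the second were the only libraries of their group there. The sets were also read from these same counts, so whether the ERG effect differs between them cannot be decided.

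**Figure D3:**
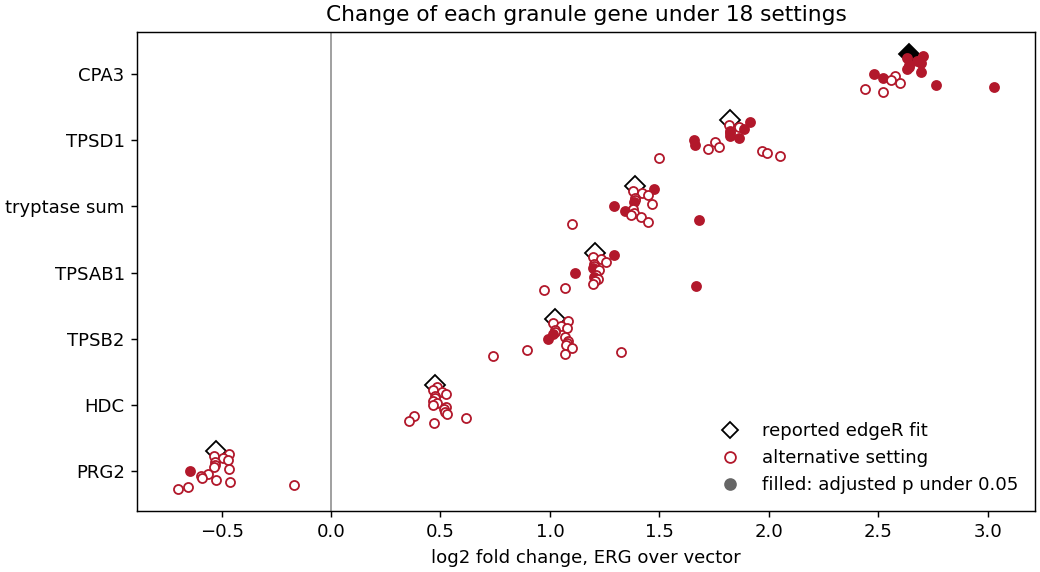
Log2 fold change of each granule gene, and of the summed tryptase rows, under the reported edgeR fit (diamond) and 17 alternative settings (circles); filled symbols have an adjusted p under 0.05. CPA3 stays between 2.44 and 3.03 in all alternatives, HDC between 0.36 and 0.62, and PRG2 is below 0 in every setting.

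To compare levels between genes, CPM values were divided by the exonic length in kilobases (CPM per kb) and ranked among 12772 genes with a length. In vector libraries PRG2 was the highest of the 6, at 512 CPM per kb (rank 54), followed by HDC at 141 (rank 259) and CPA3 at 81.0 (rank 538). PRG2 and HDC did not overlap there, and the ranges of HDC (116 to 166) and CPA3 (57.0 to 119) touched. The tryptases lay far below, with TPSB2 at 11.2, TPSD1 at 10.4 and TPSAB1 at 7.13 CPM per kb, and their ranges overlapped. In ERG libraries CPA3 led with 504 CPM per kb (rank 51), then PRG2 with 356 (rank 68) and HDC with 195 (rank 164). TPSD1 followed at 36.9, TPSB2 at 22.9 and TPSAB1 at 16.4 CPM per kb, and no neighbours in this order overlapped. The order among the tryptases is uncertain in either group, since the TPSAB1 and TPSB2 rows are uncertain as separate genes. Division by exonic length does not allow for reads with several matches that were dropped or divided among the rows. Stretches open to this were more frequent in TPSAB1 and TPSB2 than in TPSD1.

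The ratio of CPA3 to PRG2 counts within a library does not depend on the scaling between libraries. It was 1.46, 1.51 and 1.29 in ERG 1, 2 and 3 and 0.162, 0.137 and 0.176 in vector 1, 2 and 3. CPA3 thus gave more counts than PRG2 in every ERG library and less in every vector library. The ratio of CPA3 to HDC was 1.43, 1.38 and 0.878 in ERG 1, 2 and 3 and 0.334, 0.229 and 0.224 in vector 1, 2 and 3. The ratio of HDC to PRG2 was 1.02, 1.10 and 1.47 in ERG 1, 2 and 3 and 0.486, 0.598 and 0.785 in vector 1, 2 and 3. None of these 3 ratios overlapped between the groups, and each gave a two-sided exact permutation p of 0.1, the smallest possible here. A total of 6 such ratios were computed and their p-values were not adjusted, since none could pass.

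Other parts of the granule system were read from lists of genes by function. Among 12 other granule proteins only 2 were tested and neither was called by edgeR, DESeq2 or limma or had an unadjusted p under 0.05. They were SRGN, the serglycin core protein, at 199.6 ± 10.6 against 189 ± 37.8 CPM, and PRSS57, a granule serine protease, at 127 ± 7.32 against 120.5 ± 43.3 CPM (SD, n = 3 each, ERG against vector). CTSG, which encodes cathepsin G, was below the filter, with 19, 15 and 0 counts in ERG 1, 2 and 3 and 2, 0 and 0 in vector 1, 2 and 3. Chymase (CMA1), gamma tryptase (TPSG1) and the eosinophil genes EPX, RNASE2, RNASE3, CLC and PRG3 had no row in the counts used here. They could not be tested.

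Of 4 tested genes for the handling of histamine and other amines, 1 rose and none fell. It was SLC18A2, the vesicular transporter VMAT2 that loads histamine and serotonin into granules. SLC18A2 stood at 75.9, 83.4 and 91.3 CPM in ERG 1, 2 and 3 and at 27.1, 31.6 and 37.8 CPM in vector 1, 2 and 3, with no overlap. Its log2 fold change was 1.38 (SE 0.16, edgeR adjusted p = 0.0124). The median of the 4 was 0.77, with HNMT, which breaks histamine down, at 0.62 (edgeR adjusted p = 0.515).

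The machinery that builds, processes and bounds granules had no gene past the threshold of the edgeR test on all 6 libraries. None of 12 tested enzymes of heparin and heparan sulphate synthesis was called (median log2 fold change 0.05), and the most abundant were HS2ST1, a sulphotransferase, at 162 against 161 CPM, and EXTL3, a chain-building transferase, at 122 against 148 CPM. None of 11 tested lysosomal proteases and regulators was called (median -0.08), among them CTSD, cathepsin D, at 287 against 291 CPM and CST3, cystatin C, at 188 against 224 CPM. None of 10 tested membrane proteins of lysosomes and granules was called (median 0.00), among them CD63 at 353 against 399 CPM and LAMP2 at 136 against 141 CPM. At an unadjusted p under 0.05 the heparin list had 0 genes, the protease list 1 higher and 1 lower and the membrane list 1 higher. No share over all genes was taken for these unadjusted counts. DESeq2 called 1 higher and 1 lower in the protease list and 0 in the others, and limma called 0 in each. With the library set term edgeR called 1 higher and 2 lower in the protease list, among them CST3 as lower (log2 fold change -0.37, adjusted p = 0.0411), and 1 higher in the membrane list. Over all 14203 tested genes the fit with this term called 1022 higher and 847 lower, and DESeq2 called 596 and 410.

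Of 16 tested genes for granule transport and fusion 2 rose and none fell, with a median log2 fold change of 0.41. RAB27B, a small GTPase that docks secretory granules, stood at 65.7 ± 19.1 against 12.9 ± 1.60 CPM as mean and SD of 3 libraries (log2 fold change 2.34, edgeR adjusted p = 0.0110). SYTL4, a partner of RAB27 proteins, stood at 32.4 ± 1.30 against 17.7 ± 1.45 CPM (0.87, 0.0295). Of 9 tested genes for prostaglandins and leukotrienes 1 rose and none fell. It was HPGDS, the prostaglandin D2 synthase of mast cells, at 21.6 ± 3.75 against 6.80 ± 2.27 CPM (1.66, 0.0300). The median of these 9 was 0.75, and ALOX5, the arachidonate lipoxygenase that starts leukotriene synthesis, stood at 1.26 without passing (0.211).

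Receptors of mast cells and basophils had the highest median of these lists by function, 1.43, and 4 of 10 tested genes rose while none fell. Not all of the 10 are activating receptors, since the list also holds SIGLEC8 (log2 fold change 1.33) and SIGLEC6 (-0.09). MS4A2, the beta chain of the IgE receptor, had a log2 fold change of 5.02 (edgeR adjusted p = 0.0100), IL1RL1, the IL-33 receptor, 3.11 (0.0100), KIT, the receptor for stem cell factor, 2.37 (0.0341), and FCER1G, the IgE receptor gamma chain, 1.52 (0.0251). Of 11 tested transcription factors of these lineages 2 rose, IKZF2 at 1.43 (0.0110) and GATA2 at 1.10 (0.0416), and none fell. The median of the 11 was 0.11, and MITF, a regulator of mast cell granule genes, stood at 55.1 against 53.4 CPM. The lists overlap the cell type markers given below, and the calls named here were, like that of CPA3, absent without ERG 1 or without ERG 2, when edgeR called no gene.

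**Figure D4:**
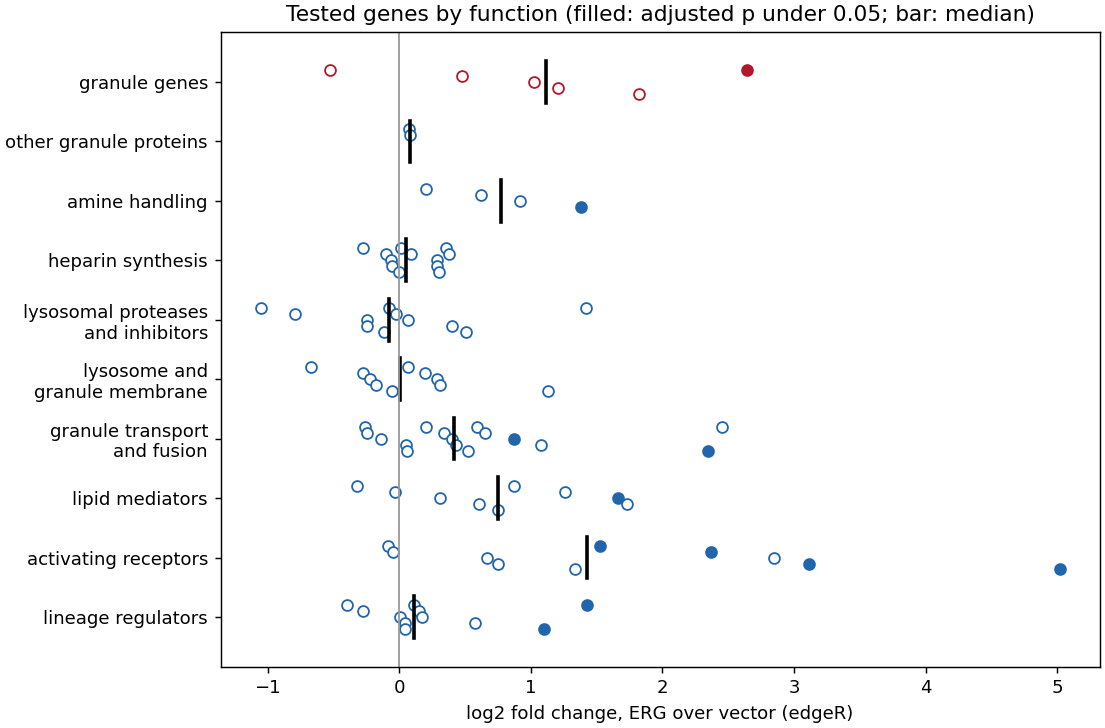
Log2 fold change, ERG over vector, of each tested gene in the lists by function. Each point is a gene, filled where the edgeR adjusted p was under 0.05, and the bar is the list's median, from -0.08 for protease processing to 1.43 for the receptors.

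Markers of whole cell types moved alongside the granule genes. Of 8 tested mast cell and basophil markers that are not among the 6, 6 rose and none fell (median log2 fold change 2.01), and their summed level was 1478 to 1729 CPM in ERG and 599 to 742 CPM in vector libraries. Of 10 eosinophil markers only PRG2 and SIGLEC8 were tested and neither passed in the reported edgeR fit. SIGLEC8, a sialic acid receptor that mast cells also carry, pointed the other way from PRG2, at 8.88 ± 0.712 against 3.52 ± 1.26 CPM (SD, n = 3 each) with no overlap (log2 fold change 1.33, edgeR adjusted p = 0.0747), and was called higher by DESeq2 and with the library set term. IL5RA, the interleukin-5 receptor, was below the filter, with 10, 22 and 15 counts in ERG 1, 2 and 3 and 4, 7 and 1 in vector 1, 2 and 3. The list's summed level, nearly all of it PRG2, was 606 to 719 CPM in ERG and 704 to 1360 CPM in vector libraries. Of 9 tested megakaryocyte markers 6 rose and none fell, and their sum was 1391 to 2637 against 558 to 1197 CPM. Among these 6, PPBP and SELP were under 1 CPM in every vector library. They entered the test through the ERG group alone, so their values are a description. Of 13 tested erythroid markers 4 fell and none rose, with sums of 3491 to 6533 against 10836 to 18742 CPM. Neutrophil and monocyte markers summed to 93.1 to 208 against 103 to 255 CPM, lymphocyte markers to 390 to 409 against 322 to 427 CPM, and stromal and epithelial markers to 4.96 to 6.72 against 6.93 to 11.7 CPM. No tested gene of these last 3 lists passed in the reported edgeR fit. At an unadjusted p under 0.05 in that fit they held 1, 2 and 0 higher and 1, 1 and 2 lower genes, again without a share over all genes. DESeq2 called 1 lymphocyte gene lower. With the library set term edgeR called 1 higher and 1 lower gene in the neutrophil list. In that fit the lymphocyte list also had 1 higher and 1 lower, and the stromal list 0. Over all 14203 tested genes the same fit called 1022 higher and 847 lower. The part of any cell type's markers in the granule gene result was not tested.

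The surroundings of the genes were read for nearby tested genes on each side. CPB1, a pancreatic-type carboxypeptidase gene that ends 5069 bases from CPA3, stood at 8.45, 10.5 and 9.71 CPM in ERG 1, 2 and 3 and at 3.43, 1.98 and 1.76 CPM in vector 1, 2 and 3. The groups did not overlap, and CPB1 rose by a log2 fold change of 1.99 (SE 0.31, edgeR adjusted p = 0.0265). On the other side of CPA3, GYG1 and HLTF had log2 fold changes of 0.08 and 0.13 and did not pass, nor did PLSCR1, the next tested gene beyond CPB1, at 0.08. An antisense gene, AC092979.1, spans CPA3, and whether counting used strand is unknown here, so reads from both strands of CPA3 cannot be told apart.

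Beside the tryptases, CACNA1H, a calcium channel gene 5500 bases from TPSB2, stood at a low level, with 26, 36 and 38 counts in ERG 1, 2 and 3 against 7, 3 and 2 in vector 1, 2 and 3. Its log2 fold change was 2.74 (SE 0.49, edgeR adjusted p = 0.0380). SOX8, a transcription factor gene further out on that side, stood at 2.71 and did not pass (0.0610), nor did BAIAP3 on the other side, at 0.95 (0.139). SOX8 passed in 5 and BAIAP3 in 2 of the 17 alternatives. CACNA1H and SOX8 were under 1 CPM in every vector library and so entered the test through the ERG group alone, which makes their values a description. The CPB1 call was lost without ERG 1, ERG 2, vector 2 or vector 3 (adjusted p of 0.0921 to 0.143). The CACNA1H call was lost without any library but vector 1 (0.0565 to 0.179).

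None of the neighbours of HDC or PRG2 passed with all 6 libraries in the edgeR fit without further terms. Around HDC, ATP8B4, a lipid flippase gene, stood at a log2 fold change of 1.62 (edgeR adjusted p = 0.0648), GABPB1 at 0.55 (0.0641), SLC27A2 at -0.31 and USP8 at 0.17. A signal recognition particle pseudogene inside HDC, RN7SL494P, has a row of its own at 1.17 to 2.99 CPM. Around PRG2, TNKS1BP1 stood at -0.74 (0.0700), RTN4RL2 at -0.60 (0.265), SSRP1 at -0.29 and SLC43A3 at -0.27. Of the 17 alternatives, ATP8B4 and GABPB1 passed in 6 each, TNKS1BP1 in 5, and SLC27A2 and RTN4RL2 in 1 each, while USP8, SSRP1 and SLC43A3 passed in none. An annotated readthrough gene, AP000781.2, overlaps PRG2 on the same strand, so PRG2 reads could be shared with it.

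**Figure D5:**
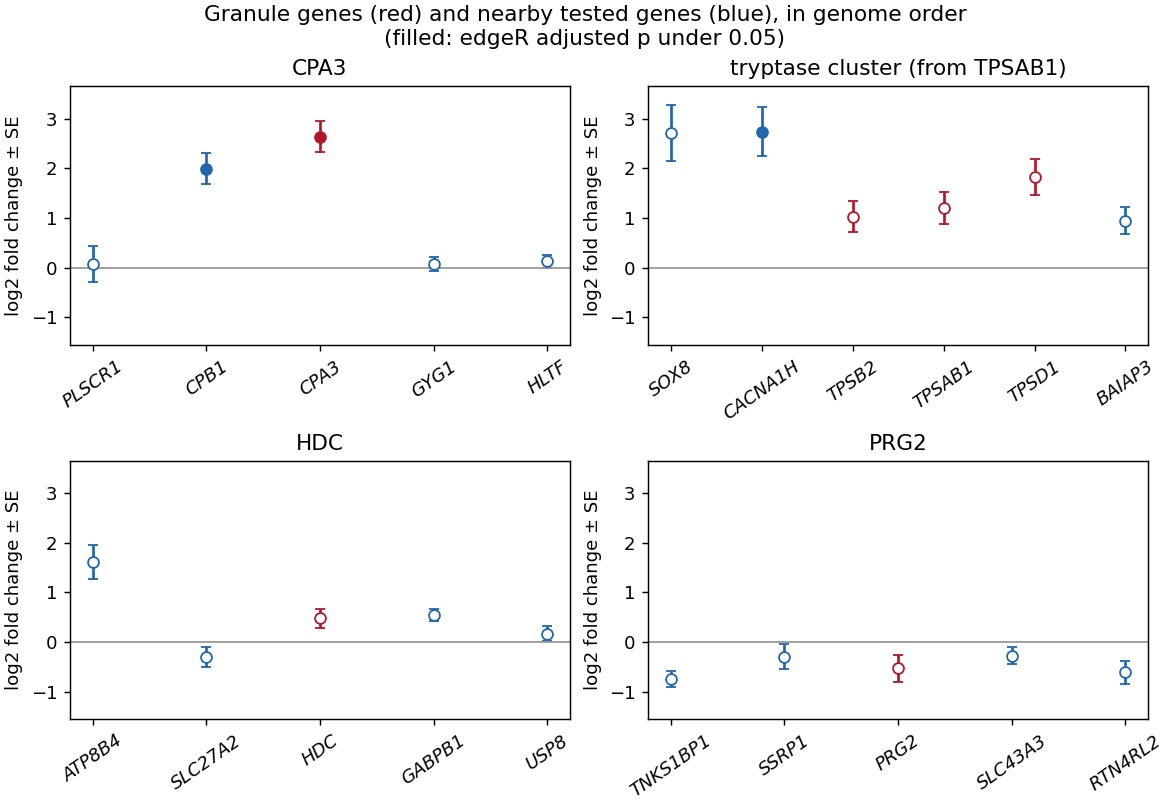
Log2 fold change with its SE for each granule gene (red) and nearby tested genes (blue), in genome order; filled symbols have an edgeR adjusted p under 0.05. CPB1 beside CPA3 and CACNA1H beside the tryptases are filled, at 1.99 and 2.74, while GYG1 and HLTF lie close to 0.

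The sequence before CPA3 is shown because it was the gene with a call. RefSeq (GRCh38.p14) promoter windows matched 2 of the 6 genes, CPA3 and HDC. The HDC window lies within the span of the annotated HDC gene and is not printed. The stretch chr3:148865046-148865255, plus strand, ends at the base before the first annotated CPA3 exon. Capitals mark GATAA and GGAAG on either strand, strings that GATA and ETS factors can read. The shorter string GGAA also occurs elsewhere in the stretch and was not marked. ERG is an ETS factor.
CPA3: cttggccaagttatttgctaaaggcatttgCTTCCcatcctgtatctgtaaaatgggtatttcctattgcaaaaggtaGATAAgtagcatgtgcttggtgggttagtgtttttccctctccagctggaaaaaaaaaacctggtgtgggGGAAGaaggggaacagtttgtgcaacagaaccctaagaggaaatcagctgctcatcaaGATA

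Counted from the RefSeq start, GATAA began at -172 and -44 of CPA3, the latter ending in the first exonic base, and GGAAG at -102 and, on the reverse strand, at -220. In 250 bases before the start, 20.4% of 35116 RefSeq promoters held GATAA and 65.1% held GGAAG on either strand. CATGTG, an E-box letter string, occurred in CPA3 at -163 and in 9.42% of promoters. In the HDC window GATAA occurred at -164 on the reverse strand and GGAAG at -75. The E-box CACGTG was also searched and had no match in either window, against 6.34% of promoters. The same held for the AP-1 string TGACTCA on both strands (4.20% of promoters) and the TATA box string TATAAA on the forward strand (6.80%). These matches are letters in a window, and no binding was measured.

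The genes whose log2 CPM followed each granule gene most closely over the 6 libraries were taken from 11116 genes of at least 5 CPM, as a description in libraries that share their sets and depth. Pseudogenes and unnamed loci were left out, which removed rows closer than some of those named for TPSD1 (1 unnamed locus), TPSB2 (1 pseudogene) and PRG2 (2 ribosomal protein pseudogenes). For CPA3 they were PIK3CG (Pearson r = 0.999), the catalytic subunit of phosphoinositide 3-kinase gamma, ARHGAP18 (0.998) and PIK3R6 (0.998). For TPSD1 they were CNN2 (0.993), ARPC2 (0.993) and PIK3C2B (0.991), for TPSAB1 INAVA (0.998), ZNF490 (0.993) and DIPK1B (0.991), and for TPSB2 RNF10 (0.986), STX3 (0.983) and BRME1 (0.981). For HDC they were DHRS9 (0.986), ZFP28 (0.984) and DEPDC5 (0.978). For PRG2 they were the ribosomal protein genes RPL34 (0.991) and RPS7 (0.989) and ABHD12 (0.991).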

How the data were processed

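The deposited values are whole-number counts per gene, which the authors made from RNA-seq reads against hg38. The submitters' processing notes name edgeR 3.32.1 and this build; the aligner, counter and strand setting are not given in the sources used here. The table's name speaks of CPM, but its columns hold counts with totals from 10257141 to 14803031, and every gene's second-highest CPM is at least 1.01, so low genes were removed before deposit. The 3 columns named NC were matched to the vector group because it is the only group besides ERG, and by replicate number, and 0 columns were left unused.

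Counts were tested in edgeR 4.0.16 (R 4.3.3) with TMM scaling and the two-sided quasi-likelihood test, ERG against vector, over 14203 genes. A gene entered when 3 or more of the 6 libraries reached 1 CPM, and 618 genes did not. The Benjamini-Hochberg adjustment ran over all tested genes, with 0.05 as the threshold. CPM are TMM-normalised, and log2 CPM used a prior count of 2. The intervals of log2 fold changes are 95% intervals from the SE. Alternatives covered scaling, filters, DESeq2 1.42.0, limma 3.58.1 (trend, log2(CPM + 1)), a term for the library set, a replicate block, summing ERG 1 and ERG 2, and leaving out each library. Leave-outs kept the same genes. The edgeR, DESeq2 and limma fits were also run on simulated counts of independent libraries, with the same dispersion for every gene. That simulation held no library sets and no pair as close as ERG 1 and ERG 2, so it does not bear on those features.

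Replicate numbers were not taken as pairs, since the deviations of same-numbered libraries from their group means correlated at 0.628, -0.285 and 0.589. Coordinates, lengths and overlaps come from GENCODE release 29, and promoters from RefSeq GRCh38.p14. The granule genes and the lists were chosen with earlier results of these data known. Named are all 6 granule genes; from each list by function up to 4 called genes with the largest change, or the 2 most abundant where none was called; the 3 genes most alike to each granule gene, leaving out pseudogenes and unnamed loci; and the 2 nearest tested genes on each side, of which 1 is not reported here. CTSG, HNMT, ALOX5, MITF, SIGLEC8, IL5RA and the overlapping genes were named outside this rule, after their values were seen.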

Additional observations from a re-analysis of the deposited data

How the results depend on the processing

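No granule gene changed direction in any of the 17 alternatives, and HDC kept its side of the threshold in all of them. Over all tested genes, 313 were called in the reported edgeR fit. The count was 905 with a replicate block, 1006 with DESeq2, 1869 with a term for the library set and 1001 with that term and ERG 1 and ERG 2 summed. It was 0 with these 2 libraries only summed, and 0 to 441 when each library was left out. Scaling and filters other than these gave counts within 1.5 times that one.

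Granule genes called higher numbered 3 with the replicate block, 2 with scaling by library size only, without a filter, with filterByExpr and with limma-trend, 4 with DESeq2 and with the library set term, 3 with that term and ERG 1 and 2 summed, 0 with the sum alone, and 0 to 2 when each library was left out. The set term also called 1 lower, PRG2 at -0.65. CPA3 was not called with ERG 1 and 2 summed, at 2.57, and ran from 2.44 to 3.03 when each library was left out. TPSD1 was called at 1.91 with the replicate block, 1.88 with library size only, 1.82 without a filter, with filterByExpr and with DESeq2, 1.86 with limma-trend, and 1.66 with the set term, with or without the sum. TPSAB1 was called at 1.29 with the replicate block, 1.20 with DESeq2, 1.11 with the set term and 1.20 with the set term and the sum, and ran from 0.97 to 1.67 across left-out libraries. TPSB2 was called at 1.02 with DESeq2 and 0.99 with the set term. The tryptase sum was called at 1.48 with the replicate block, 1.38 with DESeq2, 1.29 with the set term and 1.34 with the set term and the sum, and ran from 1.10 to 1.68 across left-out libraries. The cause of these changes was not tested.

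The replicate numbers do not pair the libraries, and ERG 2 deviated most like vector 1 (r of deviations 0.588), so the replicate block above is only a change of model. Genes near no change switched sign without a call. They were CTSD with upper-quartile factors (0.0165) and library size only (0.0336), HS2ST1 with RLE factors (-5e-04) and DESeq2 (-6e-04), PRSS57 with the set term (-0.0354), and PLSCR1 with the set term (-0.20), the sum (-0.049) and both (-0.18). When each library was left out, log2 fold changes ran from -0.35 to 0.0591 for CD63, -0.14 to 0.19 for CTSD, -0.012 to 0.0404 for HS2ST1, -0.22 to 0.18 for LAMP2, -0.15 to 0.55 for PLSCR1, -0.0879 to 0.41 for PRSS57 and -0.0291 to 0.25 for SRGN. The lowest count of any granule gene in a library was 71, and CACNA1H had 2 to 7 counts in vector libraries. The effect of depth was not tested.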
